A study of Mus musculus with 18 samples.

Results

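Figla, Nobox, Sohlh1, Sohlh2 and Lhx8 encode transcription factors that germ cells of the ovary make and other ovarian cells do not, or make far less of. These 5 genes were followed across 6 groups of mouse ovaries that differed in genotype and hormone treatment. They were taken by symbol from the probe sets that the array annotation assigns to a single gene, and each had 1 such probe set, so no other probe set could serve as a check. All 5 passed the filter on low signal and were tested among 12713 of the 18193 genes measured.

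Ovaries of female mice of the C57B6J/S129 background were used, in 6 groups of 3 arrays, 18 in all. The controls were Pik3cd+/- and the mutants Pik3cd-/-, so the controls also carried 1 mutant copy, and neither a wild-type group nor a vehicle-injected group was among the samples. The product of Pik3cd, p110 delta, is 1 of the catalytic subunits of phosphoinositide 3-kinase. All mice were labelled as 21 days of age. They were untreated, were given a single dose of 10 IU of PMSG, a gonadotropin that acts like follicle-stimulating hormone, with ovaries taken 44 h later, or were given 0.03 ml of oestradiol (E2) 3 times at 24 h intervals, with ovaries taken 72 h after the first dose. The labels do not say whether 21 days was the age at injection or when the ovaries were taken. If it was the age at injection, the treated mice were 44 h or 72 h older than the untreated ones at collection. Hormone and age then cannot be told apart in a comparison with untreated ovaries. The concentration of E2 and the kind of Pik3cd mutation are not given in the sources used here. Whole-ovary total RNA was measured on Affymetrix whole-genome mouse arrays, and the labels call the 3 arrays of a group biological replicates. In whole-ovary RNA, fewer or smaller oocytes and less of a transcript per oocyte cannot be told apart.

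Sohlh1 and Sohlh2 are basic helix-loop-helix proteins that act early in germ cells and are needed for primordial follicles to begin growth. Lhx8, a LIM homeodomain protein, and Nobox, a homeodomain protein, are needed for the same early steps, and oocytes that lack any of them are lost around birth or soon after. Figla, another basic helix-loop-helix protein, is needed to form primordial follicles and to switch on the zona pellucida genes. Loss of Sohlh1 or Sohlh2 is known to lower other genes of the group, so the 5 are usually drawn as a network.

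The helix-loop-helix members bind E-boxes, 6-base sites that read CANNTG, and the windows upstream of the members are shown to place these letters beside the expression values. The 250 bases before each start were read from RefSeq (GRCm38.p6), where all 5 genes had an entry. The Sohlh1 window is the one with the most matches, at chr2:25847249-25847498 on the minus strand, with each CACGTG, the palindromic E-box, in capitals.

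Sohlh1: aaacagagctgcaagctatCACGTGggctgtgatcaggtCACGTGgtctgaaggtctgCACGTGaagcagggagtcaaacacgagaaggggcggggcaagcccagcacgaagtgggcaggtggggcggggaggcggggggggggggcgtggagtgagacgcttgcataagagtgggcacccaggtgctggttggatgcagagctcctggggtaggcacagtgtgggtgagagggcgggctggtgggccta

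The 3 CACGTG matches began 231, 211 and 192 bases before the start. Of 32851 RefSeq windows of this length, 6.02% held at least 1 CACGTG and 0.0609% held at least 3. With both strands read, Sohlh1 held 5 CANNTG matches in all, a number reached by 1.15% of windows; the other 2 read CAGGTG. All of these are forms of the E-box, so the counts overlap.

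The other members held fewer E-boxes, shown here as windows of 30 bases with the matches in capitals. The annotated gene spans of Figla and Nobox begin upstream of the start used here, so their windows lie inside those spans.

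Figla, chr6:86017006-86017035, plus strand: ccacctcgcactCAGGTGcgtCAAGTGtgt
Nobox, chr6:43309674-43309703, minus strand: cagcccccacccCAGGTGtgcggtgcctcg
Nobox, chr6:43309587-43309616, minus strand: gcagactccacaCACCTGgccaccccacgg
Sohlh2, chr3:55181794-55181823, plus strand: cacaggcgtCAGATGggagtattttatcag

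Nobox held 2 matches to CACCTG, counted on both strands and also an E-box, and 2.06% of windows held at least as many. Figla held 2 CANNTG matches, a number that 31.8% of windows reached. Sohlh2 held 1 CANNTG match, where 66.2% of windows held at least 1, and Lhx8 held none. TAATTG, the site described for Nobox, and TGATTG, described for Lhx8, were in none of the 5 windows on either strand. Windows were also read for 9 of the genes reported as targets of these factors, which are described further on. CANNTG was in 8 of these 9 genes, where 66.2% of all windows held at least 1. CACCTG was in 6 (17.2% of windows) and TGATTG in 3, Bmp15, H1f8 and Rfpl4 (12.7% of windows). TAATTG was in none of them. Kit and Pou5f1 had more than 1 window, so shares of genes and of windows are not quite alike. CACGTG (6.02% of windows) was in 1 of the 9 and not in the other 8 (Padi6, Zar1, Kit, H1f8, Rfpl4, Pou5f1, Oosp1 and Bmp15). The one that held it was Zp3, a zona gene that Figla is known to switch on, with a match that began 181 bases before the start.

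Zp3, chr5:135979912-135979941, plus strand: ttgaataggaatCACGTGgagtgtctttac

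A match gives the letters of the sequence only, and binding was not measured.

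The arrays were alike in overall signal, with medians from 48.4 to 50.9 and correlations with their group mates from 0.989 to 0.997. The targeted gene had 6 probe sets. The probe set 1453281_at read 61.4 to 73.1 in the Pik3cd+/- arrays and 19.1 to 28.8 in the Pik3cd-/- arrays, and 1422992_s_at read 18.2 to 28.2 against 11.7 to 14.7. The brightest, 1443798_at, overlapped between the genotypes over all arrays, as did 1422991_at, 1446770_at and 1458321_at. The lowest group mean of a marker was 109.6 for oocyte (Ddx4), 100.6 for granulosa (Fshr) and 35.8 for macrophage markers (Aif1). Of 2 testis Sertoli markers, Dmrt1 averaged 21.8 to 25.8 by group. The other, Sox9, averaged 57.8 over all arrays and passed the filter. The sum of 3 oviduct markers reached 4065 in 1 Pik3cd+/- PMSG array and 1291 in 1 Pik3cd+/- untreated array, against at most 420 in the Pik3cd-/- arrays, and its part in the results was not tested.

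All 5 genes had higher signal in Pik3cd-/- than in Pik3cd+/- ovaries in each hormone state, with no overlap between the arrays of the genotypes. Averaged over the 3 states the differences ran from 1.5-fold for Sohlh2 to 2.27-fold for Figla. Values below are the deposited signal on a linear scale for single arrays, and differences are given as log2 of the signal plus 8.58, on which 1 unit is a doubling. Tests were limma's moderated test with Benjamini-Hochberg adjustment over all genes tested, and a gene was called at an adjusted p under 0.05.

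Sohlh1 lies on chromosome 2 (25842995 to 25847248) and was read by probe set 1460015_at. In untreated ovaries its signal was 110, 81.2 and 41.7 on the Pik3cd+/- arrays and 133, 206 and 236 on the Pik3cd-/- arrays. After PMSG it was 71.4, 52.6 and 53.4 against 139, 114 and 135. After E2 it was 82.7, 58.7 and 54.7 against 156, 175 and 103. The lowest Pik3cd-/- array of every state was above the highest Pik3cd+/- array of that state. The untreated Pik3cd+/- arrays were widely spread, with a coefficient of variation of 44.1%. The log2 difference between genotypes was 1.26 ± 0.28 (SE) in untreated ovaries (adjusted p = 0.032), 1.03 ± 0.28 after PMSG (adjusted p = 0.0478) and 1.04 ± 0.28 after E2 (adjusted p = 0.0215).

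Sohlh2, the partner of Sohlh1 in dimers, lies on chromosome 3 (55182044 to 55209957; probe set 1429817_at). In untreated ovaries it read 93.3, 82 and 59.2 in Pik3cd+/- and 115, 151 and 120 in Pik3cd-/-. After PMSG the arrays read 66.3, 80.5 and 69 against 114, 122 and 116. After E2 they read 77.3, 72.6 and 63.1 against 93.3, 104 and 96.7. Its genotype difference was the smallest of the 5 after PMSG and after E2, and its Pik3cd-/- groups spread little in the treated states, with SDs of 3.81 after PMSG and 5.65 after E2 (n = 3). The log2 differences were 0.67 ± 0.14 (adjusted p = 0.0275), 0.65 ± 0.14 (adjusted p = 0.0161) and 0.43 ± 0.14 (adjusted p = 0.0426) in untreated, PMSG and E2 ovaries.

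Lhx8 is further along chromosome 3 (154306288 to 154330560; probe set 1427300_at). Untreated Pik3cd+/- arrays read 903, 842 and 708, and untreated Pik3cd-/- arrays 1057, 1464 and 1419. After PMSG the values were 406, 435 and 473 against 874, 942 and 915. After E2 they were 608, 541 and 517 against 1109, 1281 and 641. The third Pik3cd-/- array after E2 stood well below its mates and only just above the highest Pik3cd+/- array. Lhx8 was the member that missed the threshold in untreated ovaries, with a log2 difference of 0.67 ± 0.19 (95% confidence interval 0.27 to 1.08, adjusted p = 0.0715). It was 1.04 ± 0.19 higher after PMSG (adjusted p = 0.00856) and 0.8 ± 0.19 higher after E2 (adjusted p = 0.0141).

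Figla lies on chromosome 6 (86016494 to 86020996; probe set 1450369_at). Its untreated arrays read 266, 198 and 137 in Pik3cd+/- and 294, 521.5 and 664 in Pik3cd-/-. After PMSG the values were 141, 138 and 115 against 348, 237 and 288.5. After E2 they were 165, 130 and 124 against 348, 439 and 249. Figla had the widest fold between genotypes of the 5 after E2 (2.34). The third untreated Pik3cd+/- array and the first untreated Pik3cd-/- array were the low ones of their groups. The same 2 arrays were the lowest of their groups for Sohlh1, Sohlh2, Lhx8 and Nobox. The log2 differences were 1.23 ± 0.28 (adjusted p = 0.0348), 1.09 ± 0.28 (adjusted p = 0.0386) and 1.23 ± 0.28 (adjusted p = 0.0111).

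Nobox is on the same chromosome (43303674 to 43310072; probe set 1425759_at). Untreated arrays read 712, 622 and 549 in Pik3cd+/- and 899, 1187 and 1031 in Pik3cd-/-. After PMSG they read 287, 327 and 334 against 729, 739.6 and 715. After E2 they read 440, 358.5 and 335 against 885, 904 and 534. The PMSG arrays were tight within each genotype, with coefficients of variation of 8.07% and 1.72%, and the third Pik3cd-/- E2 array was again the low one. The log2 differences were 0.72 ± 0.17 (adjusted p = 0.0405), 1.18 ± 0.17 (adjusted p = 0.00232) and 0.99 ± 0.17 (adjusted p = 0.00295).

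**Figure D1:**
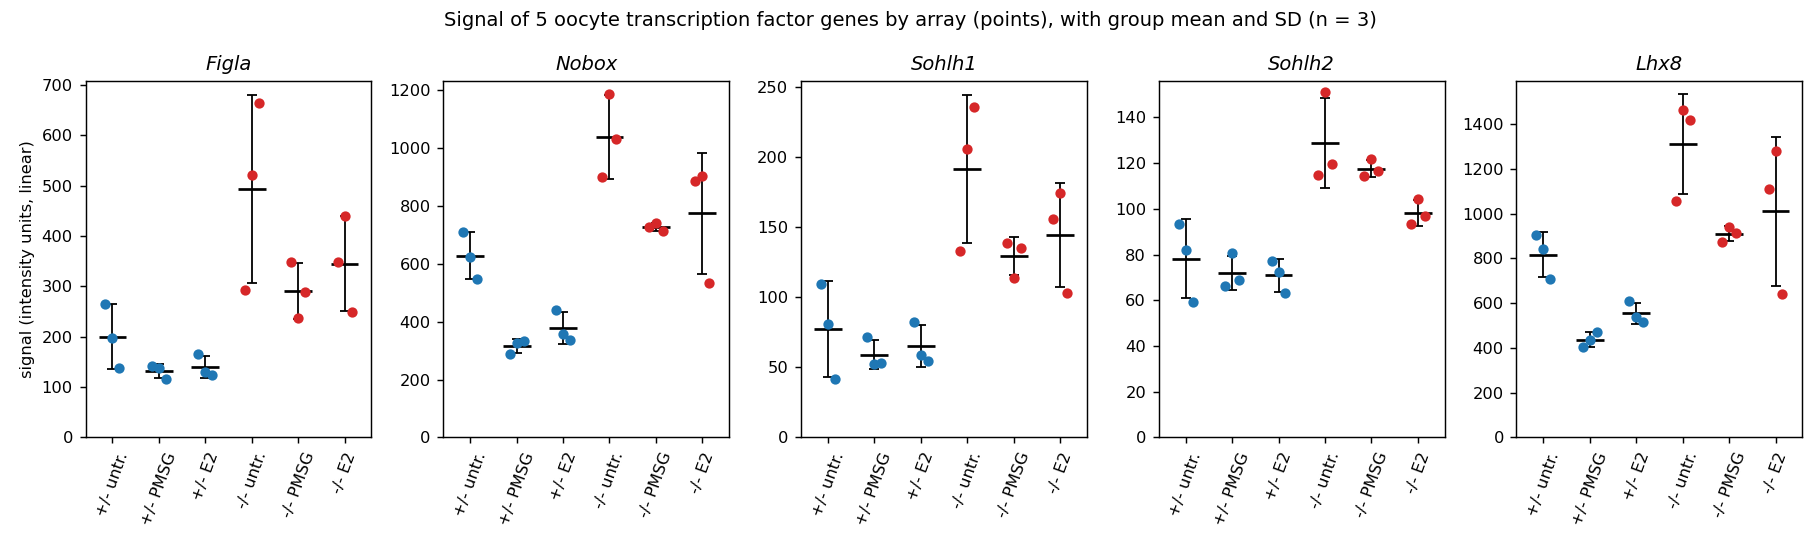
Signal of each gene (intensity units on a linear axis from 0) on the 18 arrays, in 6 groups of 3, with blue points for Pik3cd+/- and red points for Pik3cd-/- arrays; black bars are group means and whiskers 1 SD. Within each hormone state the red points lie above the blue points for all 5 genes.

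In untreated ovaries 4 of 5 members were called higher in Pik3cd-/-, where 0.834% of all genes tested were called higher. All 5 had arrays that did not overlap, as 12.5% of all genes did in that direction. After PMSG 5 of 5 were called higher (3.08% of all genes; arrays apart in 16.7%), and after E2 also 5 of 5 (4.85%; arrays apart in 8.89%). The median difference of the 5 was 0.72, 1.04 and 0.99 in the 3 states, beside medians of -0.01, 0.01 and -0.07 over all genes tested.

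The calls within single states rested on few arrays. Without the second or the third untreated Pik3cd+/- array, or the second untreated Pik3cd-/- array, 0 of 5 were called in untreated ovaries by limma, and without the first Pik3cd+/- or the third Pik3cd-/- array 2 were; the 6 arrays left out in turn gave log2 differences for Figla from 0.98 to 1.56. After PMSG, leaving out 1 array gave 1 call (without the second Pik3cd-/- array), 2 calls (without the first Pik3cd+/- or the third Pik3cd-/- array) or 3 calls (each of the other 3 arrays), and after E2 it gave 2 calls without the second Pik3cd+/-, the first Pik3cd-/- or the second Pik3cd-/- array and 3 without the third Pik3cd+/- array. No sign turned in any of these fits. The count over all genes tested, in either direction, moved as well: from 276 to between 1 and 678 in untreated ovaries, from 525 to between 82 and 384 after PMSG and from 2141 to between 642 and 2940 after E2. When the 2 groups of a comparison were fitted alone, 0 of 5 members were called in untreated ovaries (95 of all genes) and 0 after E2 (97 of all genes). After PMSG 5 of 5 were called in such a fit (989 of all genes).

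The mean of the 3 genotype differences, a contrast added after the data were seen, used all 18 arrays. Figla was 1.18 ± 0.16 higher (adjusted p = 0.000157), Sohlh1 1.11 ± 0.16 (adjusted p = 0.000243) and Nobox 0.96 ± 0.10 (adjusted p = 1.82e-05). Lhx8 was 0.84 ± 0.11 higher (adjusted p = 0.000141) and Sohlh2 0.58 ± 0.08 (adjusted p = 0.000157). On this contrast 5 of 5 were called higher, where 11.8% of all genes were, and all 5 stayed called without any 1 of the 18 arrays.

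**Figure D2:**
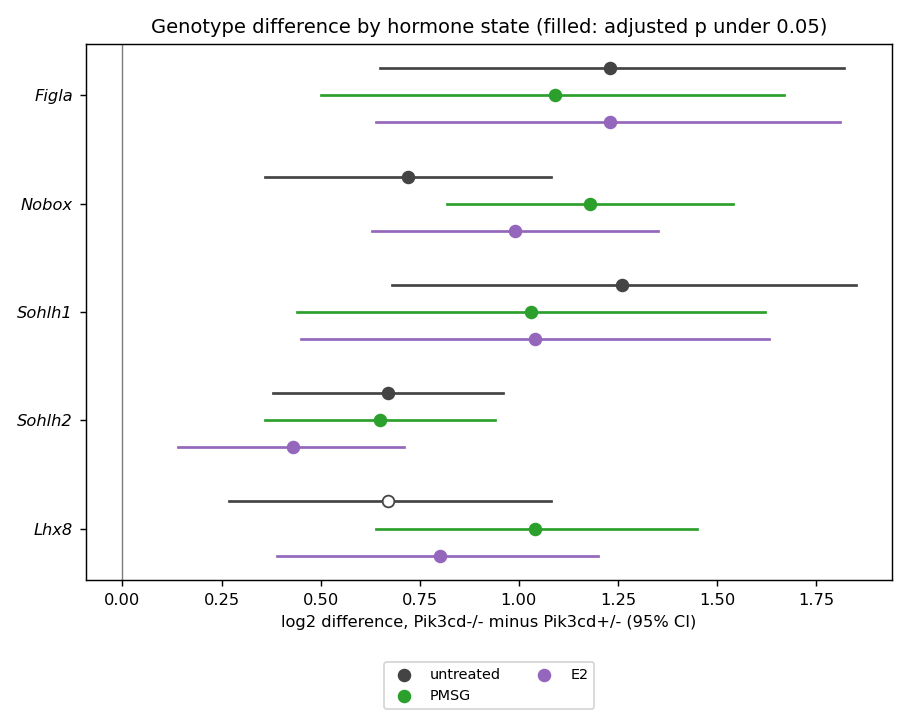
Log2 difference of Pik3cd-/- minus Pik3cd+/- ovaries (horizontal axis) for each gene in untreated, PMSG and E2 ovaries, with 95% confidence intervals from the limma fit; filled points have an adjusted p under 0.05. All 15 intervals lie above 0, and the open point is Lhx8 in untreated ovaries.

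Nobox and Lhx8 were lower after PMSG in Pik3cd+/- ovaries. Nobox fell from a mean of 628 ± 81.5 to 316 ± 25.5 (SD, n = 3), a log2 change of -0.97 ± 0.17 (adjusted p = 0.00254). Lhx8 fell from 818 ± 99.8 to 438 ± 33.8, a log2 change of -0.88 ± 0.19 (adjusted p = 0.00708). For both genes every PMSG array was below every untreated array. Figla (-0.53 ± 0.28, adjusted p = 0.189), Sohlh1 (-0.27 ± 0.28, adjusted p = 0.527) and Sohlh2 (-0.09 ± 0.14, adjusted p = 0.679) did not pass, and their arrays overlapped. The count was thus 2 of 5 lower, where 11.9% of all genes were called lower and 24.9% had all arrays below. Both calls held without each of the 6 arrays in turn.

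Some markers of other ovarian cells were called higher in the same comparison, while others were called lower or not called. Of 5 theca and steroidogenic markers 3 were called higher, the steroid-making genes Cyp17a1 (3.17 ± 0.61, adjusted p = 0.00396), Cyp11a1 (2.5 ± 0.46, adjusted p = 0.00312) and Star (2.17 ± 0.56, adjusted p = 0.017), and Gli1 was lower (-0.58 ± 0.09, adjusted p = 0.000831). Their summed signal was 11326 to 13302 in untreated and 19723 to 27608 in PMSG ovaries of Pik3cd+/-. Of 6 macrophage markers 3 were called higher (C1qa, C1qb and Aif1), with a median log2 change of 0.93 and summed signals of 946 to 1068 against 1433 to 2788. Of 5 smooth muscle markers 2 were called higher (Des and Actg2), with a median of 0.83 and sums of 9758 to 11633 against 12160 to 15063. Of 7 granulosa markers Fshr was higher (1.16 ± 0.3) and Amh lower (-0.5 ± 0.13), and of 4 endothelial markers 0 were called by limma, with 0 at an unadjusted p under 0.05. These counts were not set beside the share of all genes called higher. The part of these markers in the members' changes was not tested.

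After E2 in Pik3cd+/- ovaries Nobox was the member called, with a mean of 378 ± 54.9 and a log2 change of -0.72 ± 0.17 from untreated (adjusted p = 0.0442). This made 1 of 5 called lower, where 0.44% of all genes were. The call was lost without any 1 of the 6 arrays, with an adjusted p from 0.0539 to 0.151. Lhx8 changed by -0.55 ± 0.19 (adjusted p = 0.154) although its E2 arrays were all below the untreated ones, as in 14.6% of genes. Figla, Sohlh1 and Sohlh2 had log2 changes of -0.46, -0.15 and -0.11 with overlapping arrays.

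In Pik3cd-/- ovaries no member was called by limma after PMSG or after E2. After PMSG 0 of 5 were called lower, where 0.684% of all genes were, and 3 of 5 had an unadjusted p under 0.05. Figla had a log2 change of -0.68 ± 0.28 (adjusted p = 0.195) and would have been called without the first untreated Pik3cd-/- array (-1.01, adjusted p = 0.0469). Lhx8 changed by -0.51 ± 0.19 (adjusted p = 0.17) and Nobox by -0.5 ± 0.17 (adjusted p = 0.132), and for these genes the PMSG arrays were all below the untreated ones, as in 14.4% of genes. After E2 0 of 5 were called lower (0.0472% of all genes), 3 of 5 had an unadjusted p under 0.05, and the log2 changes lay between -0.46 and -0.35. The Sohlh2 arrays after E2 were all below the untreated ones, as in 8.54% of genes, with a change of -0.35 ± 0.14 (adjusted p = 0.279).

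The difference between the genotypes in the response itself was not called for any member. The PMSG change of Nobox was 0.47 ± 0.24 less negative in Pik3cd-/- than in Pik3cd+/- ovaries (95% confidence interval -0.04 to 0.98, adjusted p = 0.568), and that of Lhx8 0.37 ± 0.27 less negative (-0.2 to 0.95, adjusted p = 0.683). The intervals of Figla (-0.97 to 0.68), Sohlh1 (-1.06 to 0.6) and Sohlh2 (-0.43 to 0.39) also held 0. For E2 the 5 differences ran from -0.25 for Sohlh2 to 0.27 for Nobox, with adjusted p from 0.769 to 0.999. With limma 0% of all genes were called in either of these comparisons, while 1194 and 924 genes had an unadjusted p under 0.05, none of them a member.

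Averaged over both genotypes, a contrast added after the data were seen, 3 of 5 were lower after PMSG: Nobox by -0.73 ± 0.12 (adjusted p = 0.000901), Lhx8 by -0.7 ± 0.13 (adjusted p = 0.00258) and Figla by -0.61 ± 0.19 (adjusted p = 0.0336). Of all genes 15.6% were called lower. The Figla call was lost in 8 of 12 fits that left out an array. For E2 1 of 5 was lower, Nobox by -0.59 ± 0.12 (adjusted p = 0.0182), where 2.31% of all genes were called lower; Lhx8 (-0.48 ± 0.13, adjusted p = 0.0532) was also called without the first untreated, the first E2 or the second E2 array of Pik3cd-/-, which made 2. Sohlh1 and Sohlh2 passed in neither contrast; without the third untreated Pik3cd+/- array Sohlh1 was called lower after PMSG (-0.56, adjusted p = 0.0275).

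**Figure D3:**
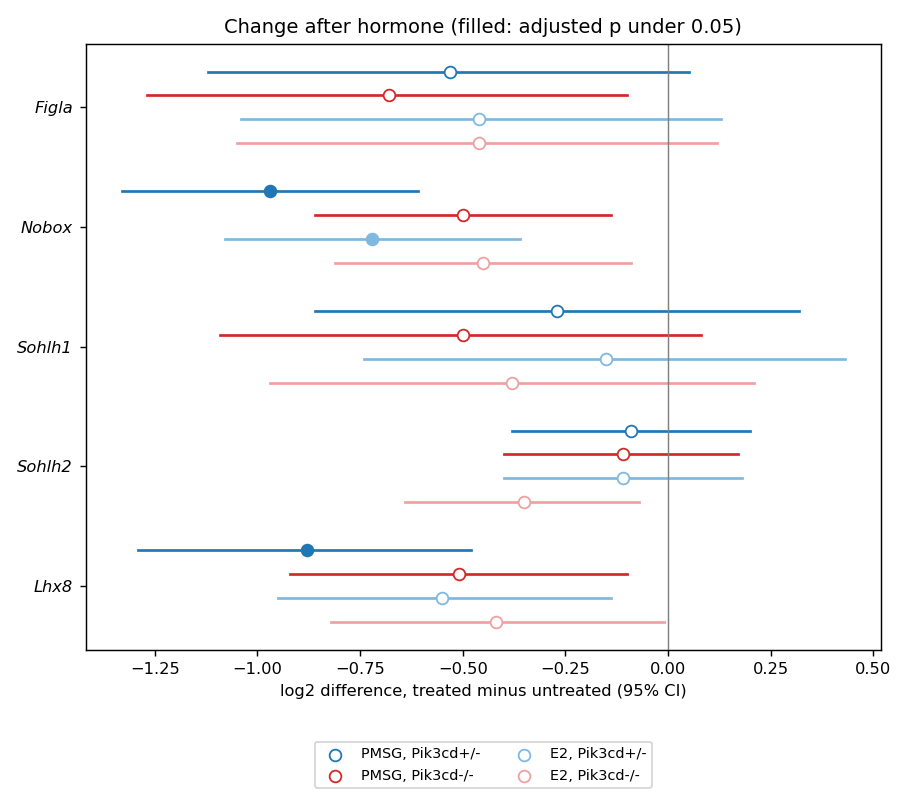
Log2 change of PMSG or E2 against untreated ovaries (horizontal axis) for each gene in Pik3cd+/- and Pik3cd-/- ovaries, with 95% confidence intervals from the limma fit; filled points have an adjusted p under 0.05. Every point is at or below -0.09, and the 3 filled points are Nobox after PMSG, Lhx8 after PMSG and Nobox after E2, all in Pik3cd+/-.

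Between the PMSG and E2 ovaries no member was called in either genotype by limma, and none had an unadjusted p under 0.05. In Pik3cd+/- the PMSG arrays of Nobox (-0.25 ± 0.17) and Lhx8 (-0.34 ± 0.19) were all below the E2 arrays, as in 21.8% of genes, where 7.65% of all genes were called lower. In Pik3cd-/- the Sohlh2 arrays after PMSG were all above those after E2 (0.24 ± 0.14, adjusted p = 0.355), as in 16.9% of genes, where 3.33% of all genes were called higher. The order of the group means was the same for Figla, Nobox, Sohlh1 and Lhx8, from untreated Pik3cd-/- through E2 and PMSG Pik3cd-/- to untreated, E2 and PMSG Pik3cd+/-. Neighbours in that order overlapped at every step for Figla, at all but 1 step for Sohlh1, and at the first 2 steps for Nobox. For Lhx8 the first 3 steps overlapped. For Sohlh2 the mean after PMSG was above that after E2 in both genotypes, by 71.9 against 71 in Pik3cd+/- and 117.5 against 98.1 in Pik3cd-/-, and its other steps overlapped.

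The oocyte markers moved with these genes. The summed signal of 6 of them (Zp3, Gdf9, Ddx4, Oosp1, Nlrp5 and Zar1) was 14672 to 15385 in untreated, 7404 to 8611 in PMSG and 9341 to 10675 in E2 ovaries of Pik3cd+/-. In Pik3cd-/- it was 20460 to 24199, 15683 to 17885 and 12731 to 23649, and the lowest of the E2 values was the third array, which also had low Nobox and Lhx8. Their mean log2 level was 0.65, 1.12 and 1.07 higher in Pik3cd-/- in the 3 states, with 2, 6 and 6 of 6 markers called higher. Of 7 granulosa markers 0 were called by limma between genotypes in each state, with 2 of 7 at an unadjusted p under 0.05 and median differences of -0.31, 0.11 and -0.23. On the mean of the 3 states, 3 of the 7 were called in either direction, where 3518 of 12713 genes tested were. Fshr, the receptor for follicle-stimulating hormone, was lower (-0.58 ± 0.18, adjusted p = 0.0238) and so was Amh (-0.23 ± 0.08, adjusted p = 0.0361). Foxl2, a granulosa transcription factor, was higher (0.22 ± 0.08, adjusted p = 0.0437). The part of either set of markers in the members' results was not tested.

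To set the members beside these markers, each member's log2 level was taken minus the mean of the 6 on the same array, a measure added after the data were seen and given with no test. Nobox then differed between genotypes by 0.06, 0.06 and -0.08 in untreated, PMSG and E2 ovaries, and all 3 pairs of groups overlapped. Lhx8 differed by 0.02, -0.08 and -0.27, with its arrays apart only after E2, where Pik3cd-/- was lower. Figla and Sohlh1 were 0.58 and 0.61 higher relative to the markers in untreated Pik3cd-/- ovaries, with overlapping arrays, and between -0.09 and 0.16 in the treated states. Sohlh2 differed between genotypes by 0.02 in untreated ovaries, by -0.47 after PMSG, where the arrays were apart, and by -0.64 after E2, where they overlapped. Within Pik3cd-/-, Nobox changed relative to the markers by -0.1 after PMSG, with overlapping arrays, and by -0.25 after E2, with arrays apart. Sohlh2 changed there by 0.29 after PMSG, with arrays apart, and by -0.15 after E2, with overlap. The arrays of Figla, Sohlh1 and Lhx8 overlapped in both. Within Pik3cd+/-, Sohlh2 was 0.78 higher relative to the markers after PMSG and 0.51 higher after E2, with arrays apart in both. Sohlh1 was 0.6 and 0.46 higher, with overlapping arrays. Sohlh2 itself changed by -0.09 and -0.11, while the marker mean changed by -0.87 and -0.62. Both genes were dim, with mean signals of 94.2 (Sohlh2) and 111.2 (Sohlh1), and the part of low signal in these values was not tested.

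**Figure D4:**
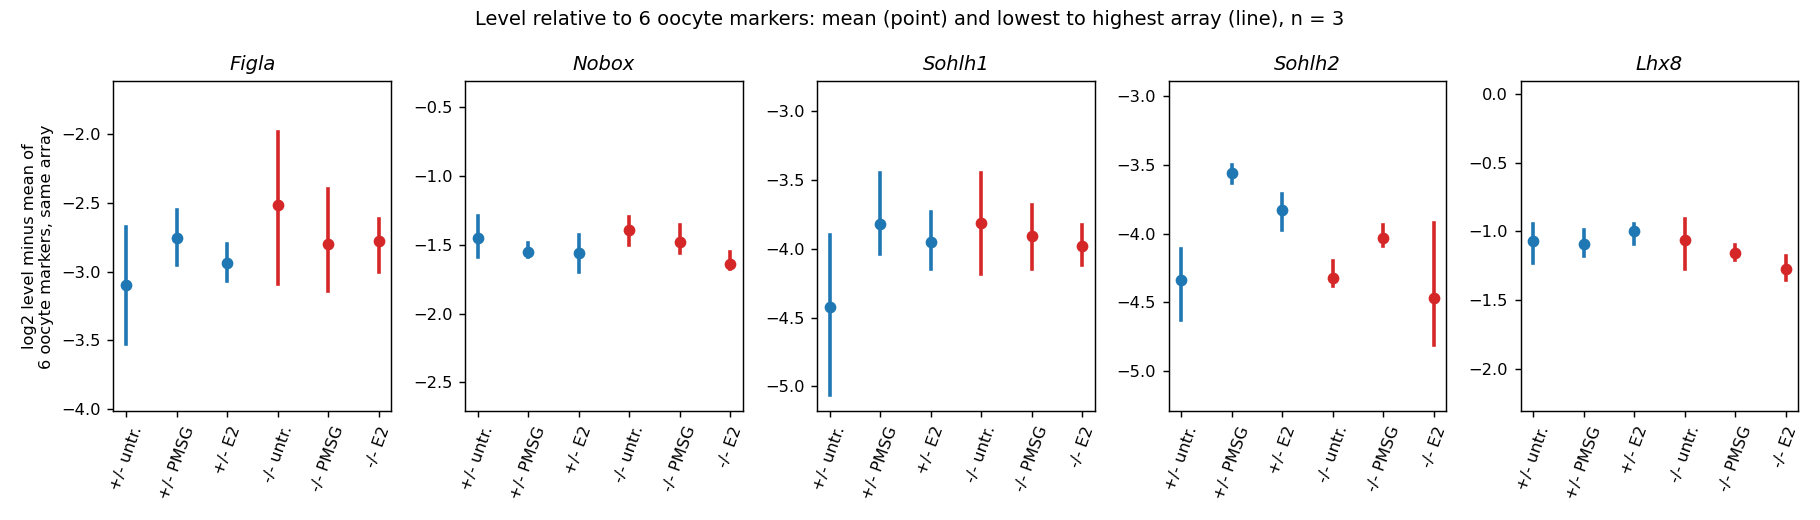
Log2 level of each gene minus the mean log2 level of 6 oocyte markers on the same array (vertical axes of equal span but different offset), as the mean (point) and the lowest to highest array (line) of 3 arrays per group; blue is Pik3cd+/- and red Pik3cd-/-. Over the 6 groups the means of Nobox lie between -1.64 and -1.39 and those of Lhx8 between -1.27 and -1. In Pik3cd+/-, Sohlh2 lies at -4.34 untreated, -3.56 after PMSG and -3.83 after E2, and Sohlh1 at -4.42, -3.82 and -3.95.

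Over the 18 arrays Nobox and Lhx8 had a Pearson r of 0.99 and Figla and Sohlh1 of 0.97, and after subtraction of each group's mean these were 0.95 and 0.92. The 4 pairs across these (Figla or Sohlh1 with Nobox or Lhx8) had r from 0.88 to 0.92, and from 0.68 to 0.72 within groups. Many genes outside the group were as close. Of 12712 other genes ranked by r with Nobox, Figla was number 237 and Sohlh1 number 454. By r with Lhx8 they were numbers 287 and 495. In the other direction, Nobox and Lhx8 were numbers 47 and 38 by r with Figla, and 69 and 58 by r with Sohlh1. Sohlh2 followed the others less closely, with r from 0.81 to 0.89 and from 0.47 to 0.62 within groups. Points of a group share their genotype and treatment, and all 18 share the array platform, so these are descriptions and carry no test.

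**Figure D5:**
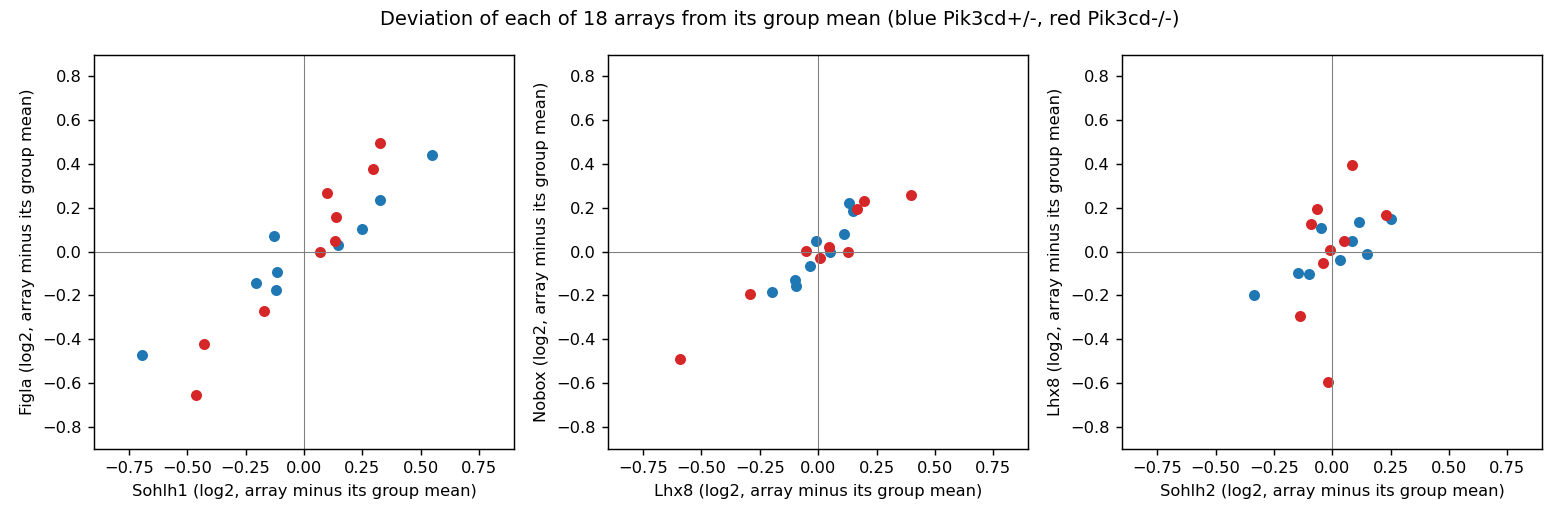
Deviation of each of the 18 arrays from the mean of its group in log2 units, for Figla against Sohlh1, Nobox against Lhx8 and Lhx8 against Sohlh2 (blue Pik3cd+/-, red Pik3cd-/-). The points of the first and second panels lie near a line (r of 0.92 and 0.95), and those of the third are scattered (r of 0.47).

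Among all genes tested, those most like Nobox over the 18 arrays were Padi6 (r = 0.991), an enzyme of the oocyte's cytoplasmic lattices, Arhgap20os and Pramel13 (both 0.988). Those most like Lhx8 were Pramel13 (0.993), Oas1c (0.992) and Zp1 (0.989), a zona pellucida protein. Nearest to Figla were Sohlh1 (0.973), Smc1b (0.965), a cohesin subunit of meiotic chromosomes, and Syce1 (0.964), of the synaptonemal complex. Nearest to Sohlh1 were Gpr143 (0.977), Figla and Syce1 (0.969). Nearest to Sohlh2 were Rab3d (0.901), Col18a1 (0.891) and Sohlh1 (0.89), with r within groups of 0.594, 0.406 and 0.624.

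Genes reported as targets of the 5 factors were followed as a list of 16, of which 15 were tested; Npm2 had no probe set of its own. In untreated ovaries 3 of 15 were called higher in Pik3cd-/-, with a median log2 difference of 0.49, after PMSG 11 (median 0.99) and after E2 14 (median 0.86). Zp2 was 0.86 ± 0.15 higher in untreated ovaries (adjusted p = 0.0195), 1.44 ± 0.15 after PMSG (adjusted p = 0.000455) and 1.13 ± 0.15 after E2 (adjusted p = 0.00113). Zp3 was 0.68, 1.24 and 1.17 higher and called in all 3 states, Padi6 was 0.76, 1.36 and 0.98 higher and called in all 3, and Zp1 was 0.78, 1.3 and 0.99 higher, called after PMSG and E2 (adjusted p = 0.0725 in untreated ovaries). The oocyte-secreted growth factor Gdf9 was called after PMSG (1.05 ± 0.17) and E2 (0.83 ± 0.17), while Bmp15, a related growth factor of the oocyte, was called after E2 (0.99 ± 0.26) and not after PMSG (0.63 ± 0.26, adjusted p = 0.209). Pou5f1, a pluripotency and germ cell factor, was called after PMSG (1.02 ± 0.23) and E2 (1.04 ± 0.23), and Nlrp14 was 1.1 ± 0.18 higher after E2 (adjusted p = 0.00218). After PMSG in Pik3cd+/- ovaries 13 of the 15 were called lower, with a median of -0.92; Zp2 (-0.91 ± 0.15, adjusted p = 0.00184), Zp3 (-0.92 ± 0.16) and Gdf9 (-0.92 ± 0.17) had the smallest adjusted p, while Bmp15 (-0.54 ± 0.26, adjusted p = 0.161) did not pass. Without 1 array the genotype count fell to 0 in untreated ovaries (without the second or the third Pik3cd+/- or the second Pik3cd-/- array), to 6 after PMSG (without the second or the third Pik3cd-/- array) and to 5 after E2 (without the first Pik3cd-/- array), and on the mean of the 3 states it was 14 to 15. When the 2 groups were fitted alone, 4 of 15 were called in untreated ovaries, 13 after PMSG and 1 after E2. Of the 6 oocyte markers above, 4 are also on this list.

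A second list held 19 oocyte and germ cell genes not on the first, of which 16 were tested. Ddx4 and Nlrp5, which are among the 6 oocyte markers above, are on it. Of these 5, 13 and 14 were called higher in Pik3cd-/- in untreated, PMSG and E2 ovaries, with medians of 0.71, 0.97 and 0.93. Ddx4, a germ cell helicase, was 1.11 ± 0.16 (adjusted p = 0.00788), 1.21 ± 0.16 (adjusted p = 0.0015) and 1.56 ± 0.16 higher (adjusted p = 0.000367). Sycp3, of the synaptonemal complex, was 1.63 ± 0.26 higher in untreated ovaries (adjusted p = 0.0165) and 1.63 ± 0.26 after E2, and not called after PMSG (0.69 ± 0.26, adjusted p = 0.16). Nlrp5, of the subcortical maternal complex, was 1.71 ± 0.22 higher after PMSG (adjusted p = 0.00139) and 1.43 ± 0.22 after E2 (adjusted p = 0.00178). Ooep of the same complex was 1.37 ± 0.19 higher after PMSG, and Dppa3 was 0.92 ± 0.18 higher in untreated ovaries and 1.18 ± 0.18 after E2. Without 1 array the count fell to 0 in untreated ovaries (without the second Pik3cd+/- array) and to 7 after E2 (without the first Pik3cd-/- array), and on the mean of the 3 states it was 16 in every such fit. When the 2 groups were fitted alone, 4 of 16 were called in untreated ovaries, 13 after PMSG and 3 after E2. The members' own medians of 0.72, 1.04 and 0.99 were close to those of this list. After PMSG in Pik3cd+/- 14 of the 16 were called lower, with Nlrp5 (-1.28 ± 0.22), Ooep (-1.03 ± 0.19) and Ybx2 (-0.88 ± 0.17) at the smallest adjusted p, and Sycp3 (0.02 ± 0.26) was outside that count.

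The last list held 8 other genes taken as regulators in the oocyte, of which 7 were tested. On the mean of the 3 states 3 were called higher in Pik3cd-/- ovaries: Lin28a, an RNA-binding protein (0.65 ± 0.14, adjusted p = 0.00399), Sall4, a zinc finger factor of germ cells (0.56 ± 0.12, adjusted p = 0.00421), and Stat3 (0.23 ± 0.06, adjusted p = 0.00887). Taf4b, a subunit of the general transcription machinery, was called lower (-0.28 ± 0.09, adjusted p = 0.0247). In either direction 4 of 7 were thus called on this contrast, where 3518 of 12713 genes tested were. The count was 3 to 5 when 1 array was left out. Within single states 2 were called higher after PMSG, Sall4 (0.88 ± 0.21, adjusted p = 0.0324) and Lin28a (0.92 ± 0.25, adjusted p = 0.0494), and neither was called without any 1 of the 6 arrays. In untreated ovaries and after E2, 0 were called by limma, with 2 of 7 at an unadjusted p under 0.05 in each; without the third Pik3cd-/- array of the state 1 and 3 were called. Foxo3, a brake on the growth of primordial follicles, differed by 0.17 ± 0.09 (adjusted p = 0.278), 0.25 ± 0.09 (adjusted p = 0.128) and -0.08 ± 0.09 (adjusted p = 0.563). The median over the 7 was 0.17, 0.21 and 0.15 in the 3 states, and its difference from the members' medians was not tested. Which ovarian cells gave the signal of these 7 genes was not measured.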

How the data were processed

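The authors deposited 1 signal intensity per probe set on a linear scale; MAS5 is named, with no version, in the submitters' processing notes, and its scaling is not given in the sources used here. No further normalization was applied. Of 45101 probe sets, 34945 had 1 gene symbol in the platform annotation, and the brightest stood for its gene. Values were taken as log2(signal + 8.58), the 10th percentile of all values, which understates changes of dim genes; a gene was tested if at least 1 group mean passed the median (5.87). The 6 groups entered 1 limma model (version 3.58.1, R 4.3.3; eBayes with trend, two-sided, 12 residual degrees of freedom), which was tested on simulated data: changes of log2 1 were recovered for 91% of genes for PMSG in Pik3cd+/- and 79.1% for the genotype difference of the PMSG change, and changes of log2 0.5 for 52.2% and 22.4%. Precision is set by having 3 arrays in a group.

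The 5 genes and the lists were chosen with earlier results of these data known. Besides the members, the 3 most alike genes by Pearson r were named and, from the lists, genes with the smallest adjusted p and a fixed set of zona, growth factor and regulator genes. Alternatives covered the pseudocount, filter, normalization, variance trend, groups fitted, replicate block, probe set and each array left out. The mean contrasts and marker-relative levels were added after the data were seen.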

Additional observations from a re-analysis of the deposited data

How the results depend on the processing

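No log2 difference of a called member changed sign under any alternative. Fitting only the groups of a comparison called 0 of 5 for genotype in untreated ovaries and 0 after E2, 2 for E2 in Pik3cd+/-, and 0 for E2 averaged over genotypes. For genotype after PMSG it called 5 of 5. After PMSG the genotype count was 3 of 5 with a pseudocount of 64, with no filter and with the replicate block. On the mean of the 3 genotype differences 4 to 5 members were called over all alternatives. Sohlh2, with a highest group mean of 7.09, was not tested with a filter at the 70th percentile (7.52). With no filter 0 were called for E2 in Pik3cd+/-; for E2 averaged over genotypes 2 were called with a filter at the 70th percentile, quantile normalization or the probe set of highest variance. The replicate block changed no other count by over 1.5 times; the labels do not state a pairing, and same-numbered arrays correlated from -0.34 to 0.34 (median -0.02), over 0.1 in 11 of 45 pairs. Leaving out 1 array gave 0 to 4 calls for genotype in untreated ovaries, 1 to 3 after PMSG, 2 to 4 after E2, 2 to 2 for PMSG in Pik3cd+/-, 0 to 0 for E2 in Pik3cd+/-, 0 to 1 for PMSG in Pik3cd-/-, and 2 to 4 and 1 to 2 for PMSG and E2 averaged over genotypes. The cause of these shifts was not tested, beyond the fewer arrays or genes in those fits. Signal over background was not analysed here, since no detection calls were used.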
